A study of Mus musculus with 6 samples.

Results

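Tetrahydrobiopterin and aromatic amine synthesis were described through 7 genes, Gch1, Pts, Spr, Qdpr, Th, Tph1 and Ddc, of the 19938 genes that the arrays measured and the platform annotation named. The genes were chosen by their place in the pathway after the lower signals of Gch1 with 4OHT and of Ddc with Shld1 were known from these arrays. Their differences between groups are therefore given as a description, without a test; standard errors and intervals show only the precision. RW4, a mouse embryonic stem cell line grown on gelatin with serum and leukemia inhibitory factor, was profiled on 6 arrays in 3 groups of 2. The groups were untreated cells (labelled WT, agent none), cells given 1 µM 4-hydroxytamoxifen (4OHT; labelled ERT2), a ligand of the estrogen receptor, and cells given 1 µM Shld1 (labelled FKBP), a ligand that stabilises proteins carrying a destabilised FKBP domain. Whether the cells of any group carried an ERT2 or FKBP fusion is not stated in the labels. Nor is it stated that duplicates were grown as separate cultures, and p-values then reflect only how far these samples spread, possibly for technical reasons. The study asked what the inducers themselves do to gene expression in these cells.

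Tetrahydrobiopterin is the cofactor with which enzymes hydroxylate aromatic amino acids and make nitric oxide. Gch1 (GTP cyclohydrolase 1) starts its synthesis from GTP and sets the rate, Pts (6-pyruvoyltetrahydropterin synthase) and Spr (sepiapterin reductase) complete it, and Qdpr (dihydropteridine reductase) regenerates the cofactor after use. Th (tyrosine hydroxylase) and Tph1 (tryptophan hydroxylase 1) use it to make L-DOPA and 5-hydroxytryptophan, which Ddc (aromatic L-amino acid decarboxylase) turns into dopamine and serotonin. The amine steps are known from monoamine neurons, adrenal medulla, gut endocrine cells and pineal gland, while cofactor synthesis is used more widely.

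Each gene had 1 probe set, and values are log2 signals as deposited. The background level was 3.71, the 95th percentile over 1027 olfactory receptor genes, a family with no known use in stem cells. Gch1, Pts, Spr, Qdpr and Ddc lay above this level on all 6 arrays, Th on 2 arrays and Tph1 on none. By their mean over the 6 arrays, 12841 of all 19938 genes lay above it. Signals of different probe sets are not comparable with each other, so the genes were set only against this level and against themselves across arrays. All 8 stem cell markers were above background, with a mean over the list of 9.97 to 10.17 on the 6 arrays. The arrays of 4OHT replicate 1 and Shld1 replicate 2 had the narrowest spread of signals, with SDs of 2.29 and 2.24 over all probe sets against 2.33 to 2.35 on the other 4.

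**Figure D1:**
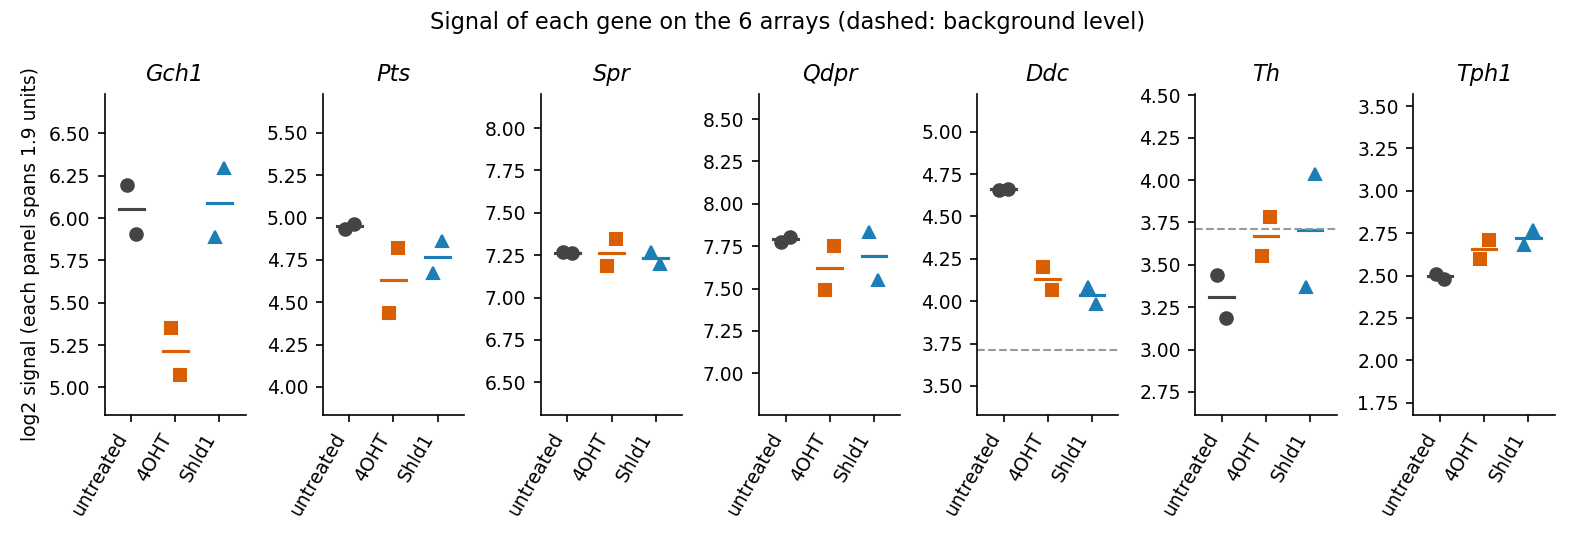
Log2 signal of Gch1, Pts, Spr, Qdpr, Ddc, Th and Tph1 (panels) in untreated, 4OHT and Shld1 cells; each point is 1 array, short lines are means of 2 arrays, the dashed line is the background level of 3.71, and all panels span the same range of signal. Gch1 is apart from the other arrays on the 4OHT arrays alone, Ddc is lower on all 4 arrays of treated cells, and the points of Spr lie nearly level.

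Gch1 (probe set 10419288), the entry enzyme, was lower with 4OHT than in either other group. Its signal was 6.19 and 5.91 in untreated cells, 5.35 and 5.07 with 4OHT, and 5.89 and 6.30 with Shld1. Both 4OHT arrays lay below all 4 other arrays, while the Shld1 arrays overlapped the untreated ones. The means were 6.05 ± 0.20 (SD, n = 2) untreated, 5.21 ± 0.20 with 4OHT and 6.09 ± 0.29 with Shld1. The log2 difference of 4OHT from untreated was -0.84 (SE 0.19, 95% interval -1.26 to -0.42), which is a 1.79-fold lower signal (interval 1.34 to 2.39). Against Shld1 at the same dose of 1 µM it was -0.88 (SE 0.19, -1.30 to -0.46), and between Shld1 and untreated 0.04 (SE 0.19, -0.38 to 0.46). The 3 comparisons share arrays and are not independent of each other. Relative to the untreated mean, 4OHT replicate 1, the array with the narrower spread, was at -0.70 and replicate 2 at -0.98. The part of that spread in the difference was not tested. On bulk RNA, fewer cells that use a gene and less RNA per cell cannot be told apart.

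The 250 bases before the RefSeq start site of Gch1 are shown because it was the gene with the largest difference, and those of Ddc because it was lower with either agent; no promoter activity was measured here. Capitals mark the motifs searched on both strands: the cAMP response element core TGACG, its full form TGACGTCA (which holds the core on both strands), the CCAAT box CCAAT, the E-box CACGTG, the TATA box TATAAA, the GC box GGGCGG and the palindromic estrogen response element GGTCANNNTGACC. The hypoxia element core ACGTG, which overlaps the E-box, was searched too. All 7 genes matched the RefSeq promoter table (GRCm38.p6). The sequences are from chr14:47189414-47189663 for Gch1, chr11:11898145-11898394 for the upstream and chr11:11890409-11890658 for the downstream start site of Ddc, all on the minus strand and written 5′ to 3′.
Gch1: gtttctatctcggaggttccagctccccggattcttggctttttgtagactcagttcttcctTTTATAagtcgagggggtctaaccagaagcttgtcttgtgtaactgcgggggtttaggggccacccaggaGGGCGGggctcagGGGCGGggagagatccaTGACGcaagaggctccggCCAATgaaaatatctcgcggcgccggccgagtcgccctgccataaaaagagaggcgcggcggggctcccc
Ddc, upstream start: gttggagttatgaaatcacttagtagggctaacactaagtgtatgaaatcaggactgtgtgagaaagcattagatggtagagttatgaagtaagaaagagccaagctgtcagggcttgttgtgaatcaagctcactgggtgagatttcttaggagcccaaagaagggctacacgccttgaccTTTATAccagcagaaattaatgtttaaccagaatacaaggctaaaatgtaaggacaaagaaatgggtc
Ddc, downstream start: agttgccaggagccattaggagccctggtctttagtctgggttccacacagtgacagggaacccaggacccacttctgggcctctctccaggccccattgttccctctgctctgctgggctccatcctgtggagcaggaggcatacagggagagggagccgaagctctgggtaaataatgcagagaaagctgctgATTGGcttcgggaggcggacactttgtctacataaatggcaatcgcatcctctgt

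In Gch1 the window held TGACG at -88 to -84 from the start site and CCAAT at -70 to -66, with GGGCGG at -118 and -105 and TATAAA on the other strand at -188 to -183. Of the 32851 promoter windows of this length in the table, 17.8% held TGACG, 33.85% CCAAT, 32.7% GGGCGG and 12.4% TATAAA. Gch1 had 59.2% G and C and 17 CpG pairs, against medians of 52.4% and 6 over all windows. The upstream window of Ddc held TATAAA on the other strand at -68 to -63, with 40.8% G and C and 1 CpG. The downstream one held CCAAT on the other strand at -55 to -51, with 56% G and C and 4 CpG. The probe set values do not separate the start sites. The estrogen response element (0.0639% of all windows), the E-box (6.02%) and ACGTG (16.6%) were in none of the 9 windows of the 7 genes. The full element TGACGTCA (1.55%) was in that of Th alone, at -45 to -38. These are matches of letters in a window and not measured sites.

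The later steps of cofactor synthesis had smaller differences with 4OHT than Gch1, whose lower signal was known when the genes were chosen. Pts, which acts directly after Gch1, was at 4.93 and 4.96 untreated, 4.44 and 4.82 with 4OHT, and 4.67 and 4.86 with Shld1. All 4 treated arrays were below both untreated arrays, but the 4OHT arrays were 0.38 apart. The differences were -0.32 (SE 0.17, -0.69 to 0.05) with 4OHT and -0.18 (SE 0.17, -0.55 to 0.19) with Shld1. The 4OHT value rests largely on replicate 1, at -0.51 from the untreated mean, against -0.13 for replicate 2.

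Spr, the last step, was the steadiest of the 7 genes, with a range of 0.16 over the 6 arrays. It was at 7.27 and 7.26 untreated, 7.19 and 7.34 with 4OHT, and 7.27 and 7.20 with Shld1, and the groups overlapped. The difference of 4OHT from untreated was -0.00022 (SE 0.14, -0.31 to 0.31) and that of Shld1 -0.03 (SE 0.14, -0.34 to 0.28). These intervals leave room for a change of up to 1.24-fold with 4OHT.

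Qdpr, which returns the oxidised cofactor to its active form, was at 7.78 and 7.80 untreated, 7.49 and 7.75 with 4OHT, and 7.83 and 7.55 with Shld1. Its lowest values were on the arrays with the narrowest spread of signals, 4OHT replicate 1 and Shld1 replicate 2, and the part of that spread in them was not tested. The differences were -0.17 (SE 0.16, -0.53 to 0.19) and -0.10 (SE 0.16, -0.46 to 0.26). Without those 2 arrays they were -0.04 and 0.04.

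**Figure D2:**
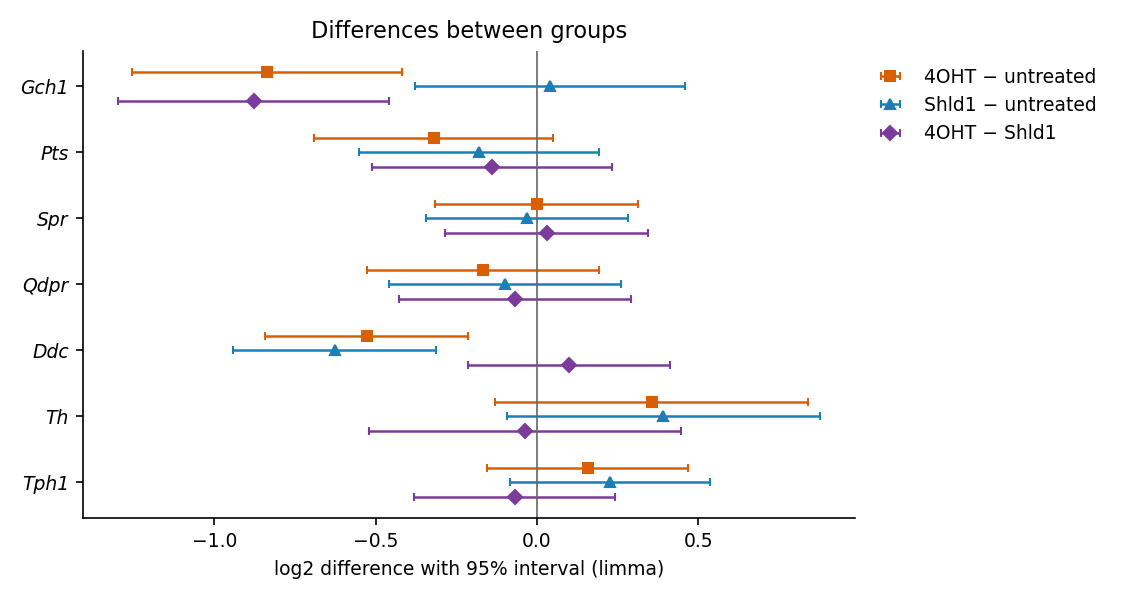
Log2 differences between groups for the 7 genes with 95% intervals from limma, n = 2 arrays per group; squares are 4OHT minus untreated, triangles Shld1 minus untreated and diamonds 4OHT minus Shld1. Gch1 is at -0.84 and -0.88 with 4OHT against untreated and Shld1, Ddc at -0.53 and -0.63 with 4OHT and Shld1 against untreated, and the other differences lie between -0.32 and 0.39.

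Ddc (probe set 10384378), the decarboxylase that makes the amines, was lower with both agents than in untreated cells. Its signal was 4.66 and 4.66 in untreated cells, 4.20 and 4.06 with 4OHT, and 4.08 and 3.98 with Shld1. The untreated arrays were 0.0081 apart, and all 4 treated arrays lay below both. The means were 4.66 ± 0.0058 (SD, n = 2) untreated, 4.13 ± 0.10 with 4OHT and 4.03 ± 0.07 with Shld1. The differences from untreated were -0.53 (SE 0.14, -0.84 to -0.21) with 4OHT and -0.63 (SE 0.14, -0.94 to -0.31) with Shld1, a 1.44-fold and a 1.54-fold lower signal. The 2 differences share the untreated arrays, whose level sets both. Between the agents Ddc differed by 0.10 (SE 0.14, -0.21 to 0.41), and their arrays overlapped. With either agent the signal was within 0.5 of the background level, which limits the size of the difference.

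Th and Tph1, the hydroxylases that supply Ddc, were above background on 2 arrays and on none. Their values below it are bounds rather than measurements, which limits the differences given. Th was at 3.44 and 3.19 untreated, 3.55 and 3.78 with 4OHT, and 3.37 and 4.04 with Shld1. The 2 arrays above the level were 4OHT replicate 2 and Shld1 replicate 2, and the Shld1 arrays were 0.67 apart. The differences were 0.36 (SE 0.22, -0.13 to 0.84) with 4OHT and 0.39 (SE 0.22, -0.09 to 0.88) with Shld1. The Shld1 value was 0.06 without replicate 2, the array with the highest olfactory receptor signal (median 2.57, against 2.31 to 2.40 on the others). The part of that signal in the difference of Th was not tested. Tph1 was between 2.48 and 2.77 on all 6 arrays. Its differences were 0.16 (SE 0.14, -0.15 to 0.47) with 4OHT and 0.23 (SE 0.14, -0.08 to 0.54) with Shld1.

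Counted over the 7 genes, 5 were lower and 2 higher with 4OHT than untreated (median -0.17, against -0.0092 over all 19938 genes), and 4 were lower and 3 higher with Shld1 (median -0.03, against -0.0043). The arrays of 4OHT and untreated cells did not overlap for 6 genes, 4 lower and 2 higher, where 20.4% of all genes were so separated downwards and 17.3% upwards. For Shld1 against untreated 2 genes were separated downwards and 1 upwards, with 17.3% and 15.2% of all genes. For 4OHT against Shld1 it was 1 gene downwards, Gch1, and 0 upwards, with 15.6% and 14.9% of all genes. Limma called 0% of all genes in each of the 3 comparisons after Benjamini-Hochberg adjustment. These comparisons chose the genes, so nothing is read from the counts.

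The genes around the pathway were grouped by role into 6 lists of 41 genes, of which 35 were measured and 21 lay above background. Over all genes, 12841 of 19938 did, so nothing is read from this count. None passed after adjustment with either agent (limma, 0 higher and 0 lower; smallest adjusted p = 0.96 for 4OHT and 0.999 for Shld1). At an unadjusted p under 0.05 there was 1 gene, Slc6a3, in each, with 4.99% and 4.34% of all genes. Between the agents 0 of the 35 passed and 0 were under 0.05 unadjusted, with 5.6% of all genes. With 4OHT, 19 of the 35 were higher and 16 lower (median 0.03, against -0.0092 over all genes), and the arrays of 9 were separated downwards and of 7 upwards, where 20.4% and 17.3% of all genes were. With Shld1, 17 were higher and 18 lower (median -0.0069, against -0.0043), with 7 and 6 separated, where 17.3% and 15.2% of all genes were. Shares of the 35 genes were thus near those of all genes.

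The list for cofactor recycling and regulation was broad, and not every gene in it recycles the cofactor or regulates Gch1. In this list 5 of 6 were lower with each agent, with medians of -0.15 and -0.10, and none passed. Gchfr, the protein through which the cofactor and phenylalanine regulate Gch1, was the exception, at 5.14 and 5.29 untreated, 5.47 and 5.54 with 4OHT, and 5.70 and 5.21 with Shld1. Both 4OHT arrays of Gchfr were above both untreated arrays, at a difference of 0.29 (SE 0.18; limma, adjusted p = 0.96). Pcbd1, a dehydratase that acts with Qdpr in recycling, had the largest difference with Shld1, -0.29 (SE 0.17), at 5.88 and 5.46, both below the untreated arrays. Akr1c18, an aldo-keto reductase, had the largest with 4OHT, -0.34 (SE 0.17), below background.

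Of the other enzymes that use the cofactor, the nitric oxide synthases Nos1 and Nos3 were above background and Nos2, Tph2 and Agmo were not. The 5 genes had medians of 0.10 with 4OHT and 0.05 with Shld1. The largest differences were those of Nos3, at 0.19 (SE 0.15) with 4OHT, and of Tph2, the neuronal tryptophan hydroxylase, at 0.23 (SE 0.16) with Shld1.

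Genes that break down, carry or further convert amines were mostly at background, with Maoa, which oxidises monoamines, and Slc6a3, the dopamine transporter, above it among 11 measured. The mean of Slc6a3 over the 6 arrays, 4.25, was below the level of 4.54 at the 99th percentile over olfactory receptor genes. The list had medians of 0.08 with 4OHT and 0.02 with Shld1. These rest on single arrays and dim genes: the Shld1 median was 0.14 without Shld1 replicate 1, -0.09 without Shld1 replicate 2 and 0.28 without the dimmest 40% of genes. The 4OHT median was 0.17 without untreated replicate 1 and 0.19 without the dimmest genes. Slc6a3 was at 3.82 and 3.96 untreated, 4.54 and 4.37 with 4OHT, and 4.17 and 4.61 with Shld1, so that all 4 treated arrays lay above both untreated ones. Its differences were 0.56 (SE 0.18; limma, adjusted p = 0.96, unadjusted p = 0.0098) and 0.50 (SE 0.18; adjusted p = 0.999, unadjusted p = 0.018), and neither passed. Slc18a2, which loads amines into vesicles, and Slc6a4, the serotonin transporter, were below background on every array.

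The GTP supply genes had medians of -0.04 and -0.05 over 5 genes, with Impdh1, which commits nucleotides to guanine synthesis, at 0.14 (SE 0.15) with 4OHT and Guk1, guanylate kinase, at -0.20 (SE 0.21) with Shld1 as the largest differences. The cells were cultured with added guanosine, per the labels. Among the aromatic amino acid carriers (medians -0.04 and -0.03 over 4), Slc3a2, the heavy chain partner of Slc7a5, was at -0.25 (SE 0.15) and -0.23 (SE 0.15), with all 4 treated arrays below both untreated ones. The molybdenum cofactor genes, which make the other pterin derived from GTP, had medians of -0.15 and -0.07 over 4. Their largest differences were those of Mocs3 with 4OHT, -0.40 (SE 0.18), and of Gphn with Shld1, -0.21 (SE 0.15). None of these genes passed. The medians lay within 0.2 of 0, and that of the GTP supply genes with Shld1 was 0.09 without Shld1 replicate 2.

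**Figure D3:**
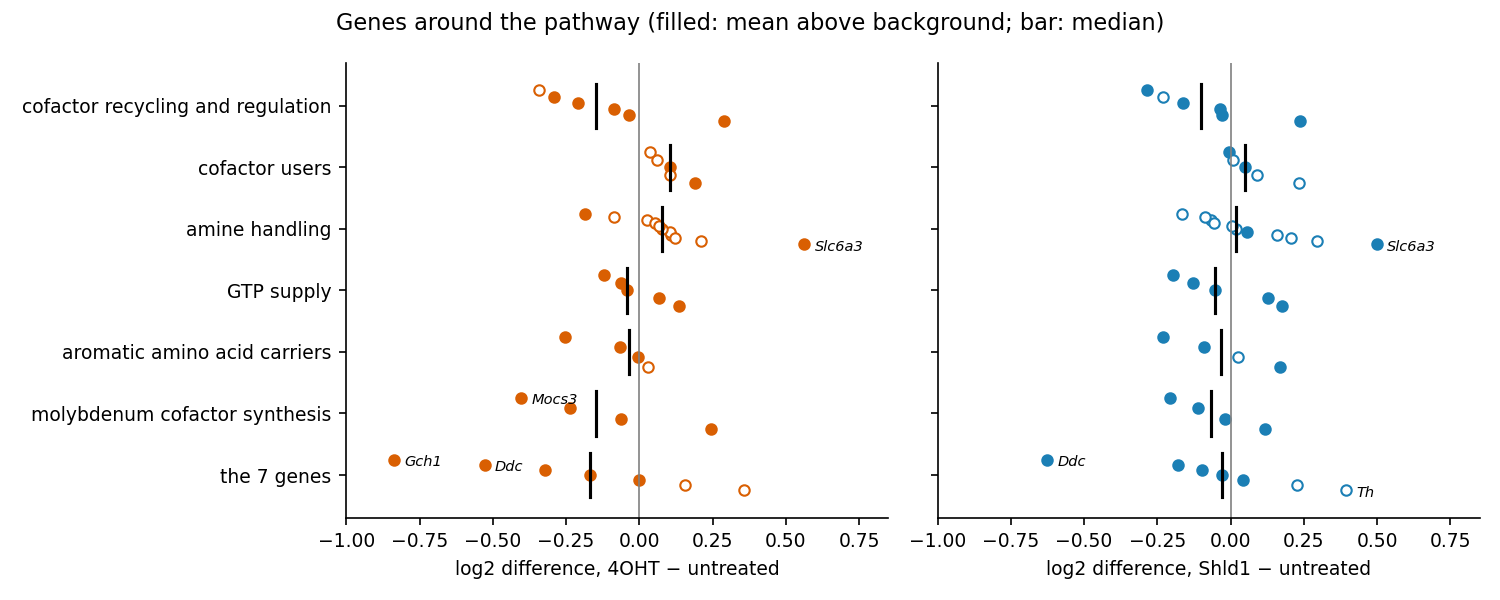
Log2 differences from untreated with 4OHT (left) and Shld1 (right) for the genes of the 6 lists around the pathway and for the 7 genes; each circle is 1 gene, filled where its mean lay above background and open where it did not, and black bars are medians. The lists centre near 0, with medians from -0.15 to 0.10, and Slc6a3 lies farthest to the right in both panels.

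Markers of cell types in which the pathway is known were set beside these values. Of 9 measured markers of monoamine neurons, Pitx3, Lmx1b, Phox2a and Slc6a3 were above background and Nr4a2, En1, Gata3, Slc6a4 and Slc18a2 were not. Their mean was 3.83 and 3.75 on the untreated arrays, 4.09 and 3.91 with 4OHT, and 3.91 and 3.85 with Shld1, so all 4 treated arrays were above both untreated ones. The median difference over the 9 was 0.20 with 4OHT (8 higher, 1 lower), against -0.0092 over all genes. With Shld1 it was 0.0050 (6 higher, 3 lower), against -0.0043, where the means rest largely on Slc6a3 and Nr4a2, at 0.50 and 0.35. Slc6a3, Slc6a4 and Slc18a2 are also in the amine list above. The array of 4OHT replicate 1, with the highest marker mean, had the highest median over all probe sets (4.32, against 4.20 to 4.26 on the others). The part of that array median in the marker mean was not tested. Nr4a2, a factor of dopamine neurons that was above background on 2 arrays, differed by 0.44 (SE 0.18; limma, adjusted p = 0.96) with 4OHT. En1 and Phox2a were at 0.01 and -0.03 with 4OHT. The 3 markers lower with Shld1 were Pitx3, Lmx1b and Phox2a, at -0.08, -0.02 and -0.13. For primitive endoderm, 7 of 8 markers were above background, with list means of 4.94 to 5.01 untreated, 4.99 to 5.05 with 4OHT and 5.05 to 5.09 with Shld1. For fibroblasts it was 5 of 8 (4.41 to 4.50, 4.41 to 4.58 and 4.45 to 4.48), and for mast cells and macrophages 2 of 8, Kit and Cd68, which are not particular to them (3.93 to 3.97, 3.93 to 3.95 and 3.89 to 4.00). Over all genes, 12841 of 19938 lay above background, so nothing is read from these marker counts. The part of these cells in the values of Gch1 and Ddc was not tested.

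The genes whose signal followed Gch1 and Ddc most closely over the 6 arrays were taken from genes whose highest group mean lay above background and whose range was at least 0.5 times the gene's own. For Gch1 these were the highest of 2549 candidates. They were Cd1d1, a lipid antigen presenting molecule (Pearson's r 0.956), Tcea2, a transcription elongation factor (0.921), Olfr147 (0.919), the microRNA precursor Mir19b-2 (0.918) and Camkv (0.917). Each had both 4OHT arrays below both untreated and both Shld1 arrays, with differences from untreated of -0.66 for Olfr147 and -0.78 for Mir19b-2 and of -0.43 to -0.49 for the others. For Ddc, among 8651 candidates, they were Crem, a cAMP-responsive transcription factor (0.989), the myosin gene Myo5c (0.985), Tor4a (0.975), the zinc finger gene Zfp61 (0.974) and Tmem176a (0.972). All 5 were lower on all 4 treated arrays than on both untreated ones, by -0.25 to -0.45 with 4OHT and -0.30 to -0.56 with Shld1. Tmem176a was above background on the untreated arrays alone (3.84 on each) and at 3.36 to 3.45 on the treated ones, so it entered through the group where it is high and its differences are limited by background. Olfr147 in turn is of the olfactory receptor family that set the background level, and was below that level on both 4OHT arrays, at 3.70 and 3.16. No gene of the 7 or of the 6 lists was among these 10, but the filters kept many of them out beforehand. Pts, Spr and Qdpr, with ranges of 0.53, 0.16 and 0.34, could not enter for Gch1, whose range was 1.22. Th and Tph1 had no group mean above background. Nothing is read from the absence. The points share 6 arrays, and the genes were picked for their likeness. The correlations, the separated arrays and the direction of the differences therefore follow from the pick and are a description.

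**Figure D4:**
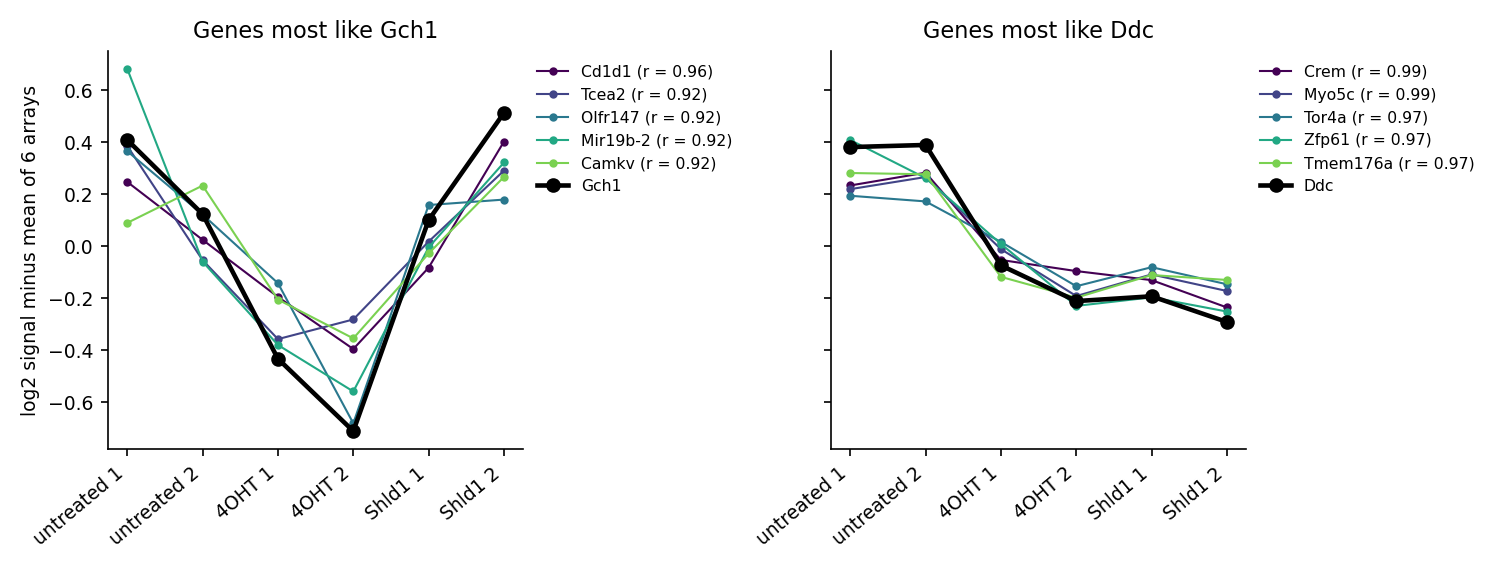
Log2 signal minus the mean of 6 arrays for Gch1 (left, thick black line) and Ddc (right) and, for each, the 5 genes with the highest Pearson's r (thin lines); the x axis lists the arrays, and lines only join the values of a gene. The lines on the left are lowest at the 4OHT arrays, and those on the right are highest at the untreated arrays.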

How the data were processed

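The members and the gene lists were chosen with earlier results of these data known. The authors deposited log2 signals for 35556 probe sets on each array; the scale was read from their range. Their background correction, summarization and normalization were not described in the sources used here. Limma 3.14 appears in the submitters' processing notes, with no role stated. Values were used as they stood.

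Probe sets with 1 symbol in the platform annotation (21789; 1621 had several and 12146 none) were named through current gene records, and the brightest probe set over the 6 arrays stood for a gene (19938 genes). Group means were fitted over all 6 arrays with limma 3.58.1 (R 4.3.3), with empirical Bayes moderation without trend and two-sided tests, Benjamini-Hochberg adjusted over all genes at 0.05. With 2 arrays per group the median standard error was 0.160.

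Named were all 7 genes, the largest difference per list and agent, and the 5 genes most like Gch1 and Ddc. Gchfr, Nr4a2, Slc18a2, Slc6a4 and Maoa were added after their values were seen. Other list and marker genes were named for lying above or below background, and Slc7a5 as the partner of Slc3a2. Differences of En1, Pitx3, Lmx1b and Phox2a were added beside that of Nr4a2, also after their values were seen. Some listed genes are not reported here.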

Additional observations from a re-analysis of the deposited data

How the results depend on the processing

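Each comparison was refitted with quantile normalization, centring on the 75th percentile, without the dimmest 40% of genes, with the mean of probe sets, with only the groups compared, with an intensity trend, with the replicate block and without each array in turn; leaving out both arrays of narrow spread, and crossing the Shld1 numbers in the block, were chosen after seeing the data. A single array in a group was assumed to vary like the others. Limma called 0 genes in every comparison and setting except 1 gene with an intensity trend in 4OHT against Shld1, which is none of the 7. Of the 147 alternative values of the 7 genes that differed at all from the value reported, 19 moved by over 1 SD between replicates, and 10 of the 21 differences changed sign under at least 1 setting, none of them of Gch1 with 4OHT or of Ddc against untreated. Both 4OHT arrays of Gch1 lay below all other arrays, and all treated arrays of Ddc below both untreated ones. Leaving out 1 array could therefore not turn these signs. Gch1 with 4OHT lay between -0.98 and -0.70 without any 1 array, and Ddc between -0.60 and -0.46 with 4OHT and between -0.68 and -0.58 with Shld1. The difference of Ddc between the agents went from 0.10 to -0.019 without both arrays of narrow spread; the cause was not tested. Of the 12 list medians against untreated, 6 changed sign under at least 1 setting. Th and Tph1 had no value without the dimmest genes, and no gene of the 7 had a second probe set. At the 99th percentile the background level was 4.54, above which Ddc lay in untreated cells alone and Pts on 5 arrays. The genes at unadjusted p under 0.05 numbered 518 to 1634 for 4OHT against untreated (995 with all arrays), 481 to 2680 for Shld1 (866) and 707 to 2270 between the agents (1117) without 1 array. The highest counts came without 4OHT replicate 2 and without Shld1 replicate 1, and for Shld1 the count was 469 without the dimmest genes, where fewer were tested. Same-numbered arrays did not deviate together (correlations of 0.05, -0.08 and -0.19 between groups across genes). With the replicate block the counts were 785, 748 and 968, and 1407 between the agents with crossed numbers.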
